A study of Mus musculus with 10 samples.

Results

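Collagen genes were taken as the rows of the deposited mouse count table whose symbol consisted of Col, a number, the letter a and a number. Of 25239 rows, 44 met this rule, and Col4a3bp, whose symbol only starts that way, was left out. They comprised 11 fibrillar genes, 6 type IV genes of the basement membrane, 3 genes of the basement membrane zone (types VII, XV and XVIII), 6 type VI genes, 9 fibril-associated genes, 3 short-chain genes (types VIII and X), 4 transmembrane genes and 2 others (types XXVI and XXVIII). RNA was sequenced from a mouse Leydig tumour cell line, MLTC-1, and from Leydig cells isolated from mouse testes, the interstitial cells that make testosterone. The line was given the solvent DMSO (3 libraries) or hymeglusin, an inhibitor of HMG-CoA synthase (3 libraries), and the primary cells came from mice aged 2 months or 24 months and had no treatment (2 libraries for each age). No genetic change was named for any group, and the dose and duration of hymeglusin, the strain, the isolation method and any pooling of animals were not given in the sources used here. MLTC-1 is a single transformed line, and the labels do not state that replicates came from different cultures or mice, and each p-value therefore speaks only of how these libraries vary, which may be technical.

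Collagens are secreted or membrane proteins whose chains wind around each other into a triple helix, and many molecules need chains from more than one gene. Fibrillar collagens form the tension-bearing fibrils of connective tissue, type IV chains form the sheet-like network of basement membranes, type VI forms beaded filaments between cells and matrix, and fibril-associated collagens sit on fibril surfaces. In the testis, basement membranes surround the seminiferous tubules and vessels, and Leydig cells lie in the loose interstitium between them.

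Total counts ran from 17407456 to 34787330 per library, so that 3 counts, the limit that a count of 0 allows, corresponded to between 0.0862 and 0.172 CPM, the count scaled by the library's total. The Leydig label was met in the primary cells, where 9 Leydig markers summed to between 18580 and 22920 CPM, and in part in MLTC-1, where they summed to between 6841 and 9505 CPM and Hsd17b3 stayed at or under 0.312 CPM and Hsd3b6 at or under 3.38 CPM. Primary libraries also held spermatid transcripts: 9 such markers summed to 1918 and 2655 CPM at 2 months, against 9134 and 5834 CPM in the 24-month libraries. The 10 Sertoli cell markers summed to 3799 and 3411 CPM at 2 months and to 5332 and 3983 CPM at 24 months. In MLTC-1 these 10 summed to between 2186 and 2339 CPM. Low counts were more often even than odd, with 59.7% to 78.2% of counts from 1 to 20 being even, so that neighbouring counts may not be separate molecules and the intervals and limits below cover counting error only.

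MLTC-1 and the primary cells carried different collagen sets. Collagen genes took 0.177% to 0.193% of all counts in DMSO libraries, 0.152% to 0.157% in hymeglusin libraries, 0.134% and 0.137% in 2-month libraries, and 0.0451% and 0.0479% in 24-month libraries. The hymeglusin share was below the DMSO share in every library (mean 0.155% ± 0.00255 against 0.185% ± 0.0078, SD, n = 3 each; exact permutation test, two-sided, p = 0.1, the smallest this design allows). Col6a1 alone held 80.1% to 82% of collagen counts with DMSO and 77.6% to 78.5% with hymeglusin. The MLTC-1 shares therefore mainly follow that gene and do not describe the class as a whole. The 24-month share was 0.343 times the 2-month share, with no overlap (n = 2 each; exact permutation test, two-sided, p = 0.333, the smallest possible). This share takes no account of transcript length. Collagen transcripts are long, and with age the median log2 change over all genes in the longest of 10 length bins was -1.41. In bulk RNA, fewer cells of a type and less RNA per cell cannot be told apart.

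**Figure D1:**
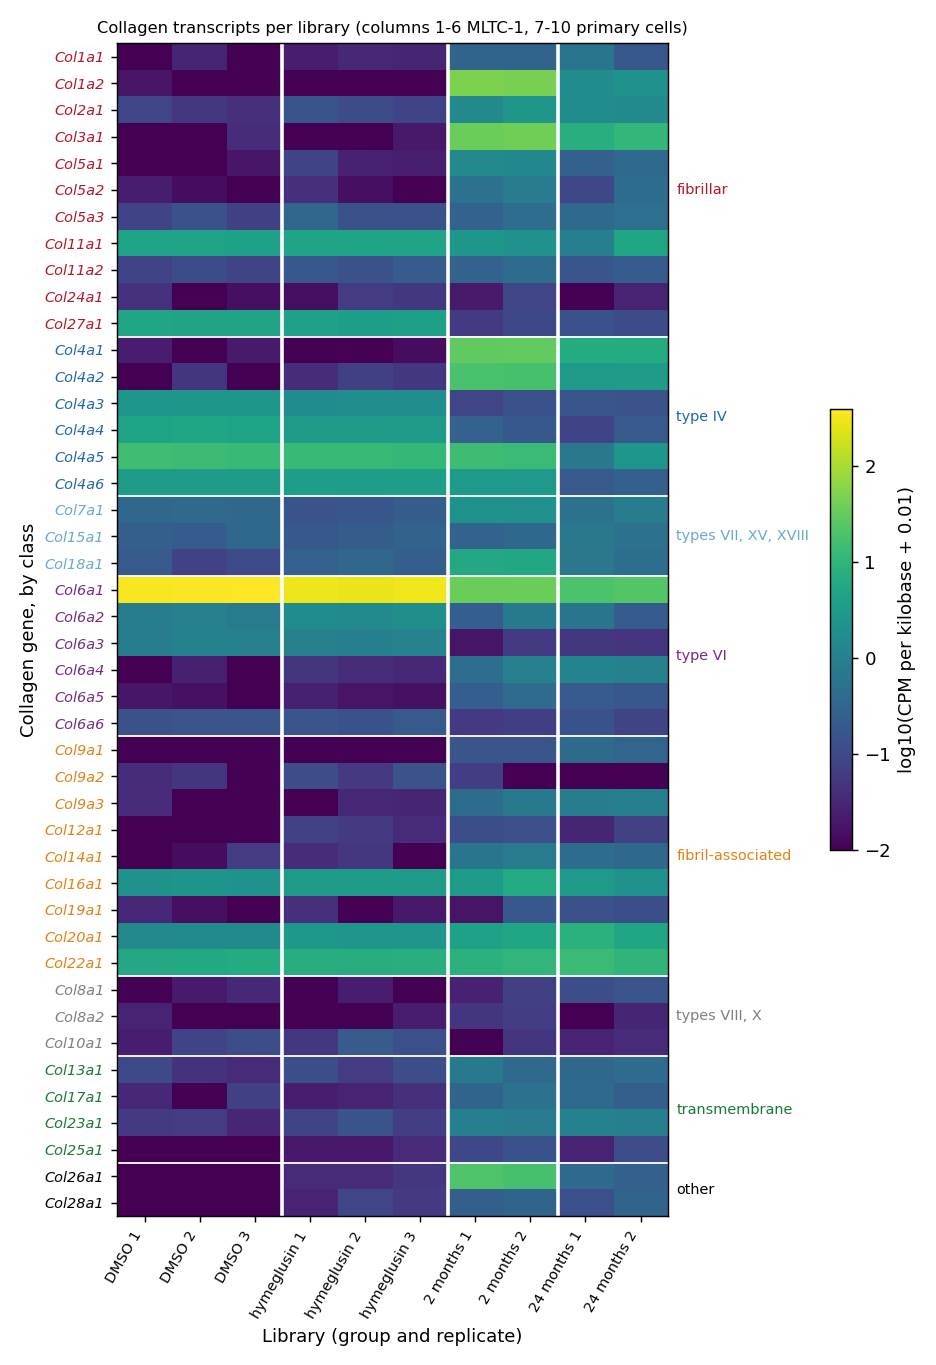
Level of each of the 44 collagen genes (rows, by class) in each of the 10 libraries (columns), as log10 of CPM per kilobase of the longest annotated transcript plus 0.01. Col6a1 is the brightest row in MLTC-1, whereas Col1a2, Col3a1, Col4a1, Col4a2 and Col26a1 are bright at 2 months and near 0 in MLTC-1.

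Levels between genes are compared as CPM per kilobase of the longest annotated transcript. Among fibrillar genes, Col1a2, which encodes the second chain of type I collagen, stood at 48.5 and 44.6 CPM per kilobase at 2 months, against 1.63 and 2.27 in the 24-month libraries. Its partner Col1a1 stood far below, at 0.285 and 0.292 in the younger libraries and 0.591 and 0.164 in the older ones. The ratio of Col1a1 to Col1a2 per kilobase was therefore 0.00587 and 0.00655 at 2 months, against 0.362 and 0.072 in the 24-month libraries. In MLTC-1 neither gene passed 4 counts in any library. Col3a1, the chain of type III collagen, followed Col1a2 with 35.5 and 39.2 CPM per kilobase at 2 months, against 7.47 and 10.8 in the 24-month libraries, and reached at most 4 counts in MLTC-1. The line instead carried Col27a1, which encodes a fibrillar chain of cartilage, at 3.79 to 4.94 CPM per kilobase against 0.05 to 0.136 in primary cells. Col11a1, a chain of type XI collagen, was shared by both kinds of cell at 4.28 to 4.82 in MLTC-1, 2.66 and 2.19 in younger cells, and 0.959 and 5.12 in older ones. The 24-month libraries thus lay on either side of the 2-month ones.

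The 6 type IV genes lie in the genome as 3 head-to-head pairs, and each pair had its own distribution. Col4a1 (chromosome 8, 11198423 to 11312889, minus strand) and Col4a2 (chromosome 8, 11312805 to 11449287, plus strand; GRCm38.p6) encode the chains of the common basement membrane network. They stood at 29.8 and 30.4 and at 18.9 and 17.9 CPM per kilobase at 2 months, and at no more than 2 and 12 counts in any MLTC-1 library. Col4a3 (chromosome 1, 82586921 to 82722059, plus strand) and Col4a4 (chromosome 1, 82448419 to 82587034, minus strand), known for the network of the kidney filter, showed the opposite distribution. They stood at 1.64 to 2.69 and at 2.89 to 4.9 CPM per kilobase in MLTC-1 and at no more than 0.155 and 0.263 in primary cells. Col4a5 and Col4a6, on the X chromosome with 1274 bases between them, were present in MLTC-1 and at 2 months at like levels, 11.5 to 14.8 CPM per kilobase for Col4a5 and 2.85 to 3.75 for Col4a6. At 24 months they stood at 0.686 and 2.53 and at 0.181 and 0.241.

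**Figure D2:**
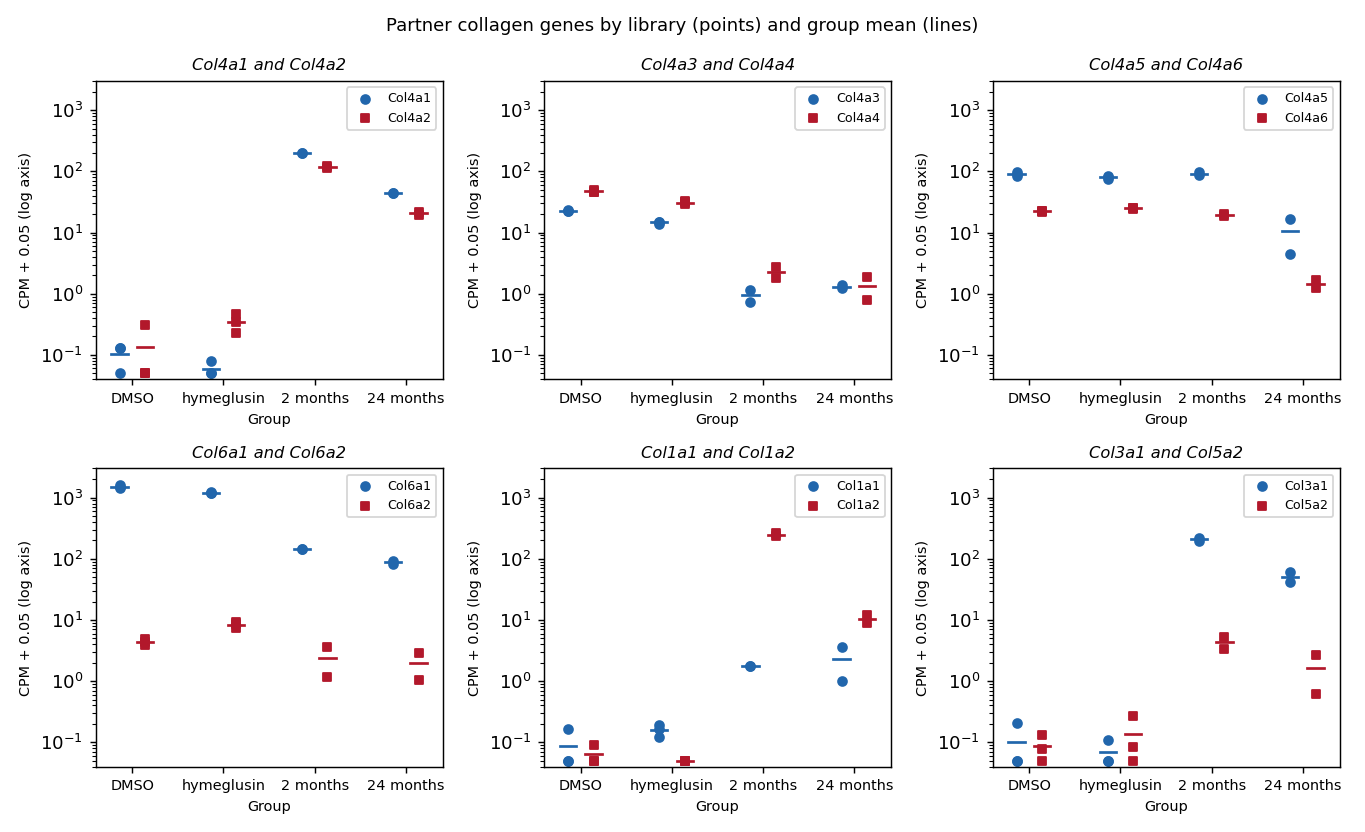
CPM plus 0.05 on a log axis for 6 pairs of collagen genes in the 4 groups; points are libraries and short lines are group means, and a point at 0.05 is a count of 0. Col4a1 with Col4a2 and Col4a3 with Col4a4 occupy opposite groups, and Col6a1 lies far above Col6a2 in every library.

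The start regions of the genes on which these contrasts turn are printed from RefSeq (GRCm38.p6), 5′ to 3′ on the gene's own strand. Each window was read as 250 bases before the start and 50 from it on. This is the commonest distance to the outer end of the RefSeq gene, met by 19827 of 32850 windows. Starts so placed fall on that end for Col4a2, Col1a2 and Col6a1. For Col4a1, Col4a5, Col4a6 and the printed Col6a2 window they lie inside the gene bounds. The other Col6a2 window, at chr10:76623581-76623880 (minus), places its start on the outer end of the gene. Capitals mark the CCAAT motif, which reads ATTGG on the opposite strand, and the GC box, GGGCGG, which reads CCGCCC there; both strands were searched. Windows were found for 35 of the 44 genes, 38 windows in all; Col1a1, Col2a1, Col4a3, Col5a2, Col9a3, Col12a1, Col14a1, Col22a1 and Col26a1 had none in the table used. The windows are Col4a1 at chr8:11312777-11313076 (minus), Col4a2 at chr8:11312555-11312854 (plus), Col4a5 at chrX:141475169-141475468 (plus), Col4a6 at chrX:141474027-141474326 (minus), Col1a2 at chr6:4505368-4505667 (plus), Col6a1 at chr10:76725995-76726294 (minus) and the lower of 2 Col6a2 windows at chr10:76623355-76623654 (minus).
Col4a1: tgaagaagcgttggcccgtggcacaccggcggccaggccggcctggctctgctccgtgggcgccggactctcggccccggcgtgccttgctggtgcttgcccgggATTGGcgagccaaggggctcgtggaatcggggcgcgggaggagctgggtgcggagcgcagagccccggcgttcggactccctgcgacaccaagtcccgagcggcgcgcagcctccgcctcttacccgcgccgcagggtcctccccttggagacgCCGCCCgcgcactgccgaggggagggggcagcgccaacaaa
Col4a2: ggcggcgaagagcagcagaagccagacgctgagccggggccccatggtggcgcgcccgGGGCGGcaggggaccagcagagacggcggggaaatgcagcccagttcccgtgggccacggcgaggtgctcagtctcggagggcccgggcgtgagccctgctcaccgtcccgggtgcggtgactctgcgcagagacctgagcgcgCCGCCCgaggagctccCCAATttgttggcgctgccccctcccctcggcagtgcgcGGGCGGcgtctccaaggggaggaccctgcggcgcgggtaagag
Col4a5: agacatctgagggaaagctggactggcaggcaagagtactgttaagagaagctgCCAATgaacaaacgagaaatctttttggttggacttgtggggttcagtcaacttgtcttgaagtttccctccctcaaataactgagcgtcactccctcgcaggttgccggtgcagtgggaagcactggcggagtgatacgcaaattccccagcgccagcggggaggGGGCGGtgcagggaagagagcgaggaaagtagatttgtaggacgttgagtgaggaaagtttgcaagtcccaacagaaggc
Col4a6: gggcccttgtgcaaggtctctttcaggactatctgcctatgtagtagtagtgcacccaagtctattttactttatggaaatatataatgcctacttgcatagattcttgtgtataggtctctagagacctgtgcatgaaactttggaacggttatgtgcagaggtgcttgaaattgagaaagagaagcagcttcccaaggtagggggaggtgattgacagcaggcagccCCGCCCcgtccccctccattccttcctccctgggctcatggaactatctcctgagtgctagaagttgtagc
Col1a2: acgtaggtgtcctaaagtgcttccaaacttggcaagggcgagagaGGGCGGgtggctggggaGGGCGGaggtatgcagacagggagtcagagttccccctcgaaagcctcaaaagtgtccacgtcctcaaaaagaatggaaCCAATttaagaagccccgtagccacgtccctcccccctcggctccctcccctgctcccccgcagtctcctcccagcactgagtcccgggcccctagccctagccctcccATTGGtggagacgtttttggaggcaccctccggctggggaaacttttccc
Col6a1: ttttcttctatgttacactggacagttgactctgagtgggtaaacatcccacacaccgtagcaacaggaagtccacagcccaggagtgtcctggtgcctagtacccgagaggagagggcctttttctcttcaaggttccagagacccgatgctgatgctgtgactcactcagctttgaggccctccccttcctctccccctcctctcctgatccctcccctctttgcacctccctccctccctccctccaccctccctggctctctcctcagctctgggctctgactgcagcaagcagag
Col6a2: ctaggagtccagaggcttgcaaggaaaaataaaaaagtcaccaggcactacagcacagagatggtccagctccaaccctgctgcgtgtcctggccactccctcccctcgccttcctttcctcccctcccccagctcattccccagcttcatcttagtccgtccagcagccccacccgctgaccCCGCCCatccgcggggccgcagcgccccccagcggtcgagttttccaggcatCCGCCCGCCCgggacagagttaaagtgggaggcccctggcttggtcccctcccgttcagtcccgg
The Col4a1 and Col4a2 starts so placed lie 21 bases apart, whereas the RefSeq gene bounds overlap, with a gap of -85 bases. Their windows share 78 bases, so the GC box near the Col4a1 start and the last one of Col4a2 are the same 6 bases. With positions counted from the start so placed as 1, CCAAT or its reverse began at -145 for Col4a1, -32 for Col4a2, -196 for Col4a5, and -109 and 1 for Col1a2. GC boxes began at 10 for Col4a1, at -192, -48 and 8 for Col4a2, at -30 for Col4a5, at -21 for Col4a6, at -205 and -188 for Col1a2, and at -67, -15 and -11 for Col6a2, the last 2 overlapping. The other Col6a2 window held 1 GC box, at -175 from its own start, and no CCAAT. The Col6a1 window held neither motif. CCAAT in either direction was in 37.4% of all 32851 windows and in 13 of the 38 collagen windows (34.2%), and the GC box in 35.7% and in 23 of 38 (60.5%). CpG numbered 37 and 33 in the Col4a1 and Col4a2 windows and 3 in each of the Col6a1 and Col4a6 windows, against a median of 7 over all windows.

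Type VI was the dominant collagen class of the line and rested on 1 gene. Col6a1, one of the chains of the type VI heterotrimer, stood at 346, 367 and 385 CPM per kilobase with DMSO and made up 80.1% to 82% of all collagen counts there. It ranked between 77 and 107 among 24366 genes by CPM per kilobase in the DMSO libraries, between 2109 and 2188 at 2 months and between 3356 and 3413 at 24 months. Col6a2, the partner chain on the same chromosome, stood at only 0.773 to 0.977 CPM per kilobase with DMSO, and Col6a3, the longest of the common type VI chains, at 0.865 to 1.03. The ratio of Col6a2 to Col6a1 per kilobase was 0.00201 to 0.00267 with DMSO and 0.00516 to 0.00618 with hymeglusin. At 2 months it was 0.00625 and 0.0202, and at 24 months 0.0296 and 0.00907. The alternative chains Col6a4, Col6a5 and Col6a6 lie in a row on chromosome 9. Col6a4 and Col6a5 were scarce in the line, Col6a5 at or under 0.146 CPM against 1.52 to 3.63 CPM in primary cells. The ranges of Col6a6 overlapped between the line and primary cells. In MLTC-1, Col6a6 reached 1.11 to 1.65 CPM while Col6a4 stayed at or under 0.291 CPM, and in primary cells Col6a4 reached 3.13 to 8.62 CPM while Col6a6 stayed at 0.423 to 1.15.

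The remaining classes were led by few genes. Col22a1, a fibril-associated collagen known from tissue junctions, stood at 5.85 to 7.35 CPM per kilobase in MLTC-1 and at 8.65 to 13.5 in primary cells, and Col16a1 and Col20a1 of the same class were also found in all 10 libraries. Col18a1, whose chain carries the endostatin fragment, stood at 5.92 and 5.27 CPM per kilobase at 2 months, at 0.647 and 0.452 at 24 months, and at 0.0668 to 0.322 in MLTC-1. Col26a1, a collagen first described in testis and ovary, stood at 20.6 and 18.1 at 2 months, at 0.372 and 0.243 at 24 months, and had no count in the DMSO libraries. Col9a1 had no count in any MLTC-1 library. The 3 short-chain genes and Col24a1 stayed under 0.76 CPM in all 10 libraries.

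Hymeglusin was compared with DMSO to ask what blocking HMG-CoA synthase, an enzyme shared by ketone body and sterol synthesis, did to the line. Col4a3, Col4a4, Col4a5, Col7a1, Col6a1 and Col27a1 were lower, and Col6a2, Col16a1, Col18a1 and Col20a1 were higher. Of the 44 genes 19 passed the filter on low counts, 4 of them rose (23.8% of all 12873 genes tested rose) and 6 fell (24.5% of all genes fell), and 9 were not called by edgeR's quasi-likelihood test at a Benjamini-Hochberg adjusted p under 0.05. These shares are near the background, and the median log2 fold change of the 19 was 0.02 against 0.01 for all genes. Of the 19 tested, 18 had a mean of at least 10 counts in both groups.

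**Figure D3:**
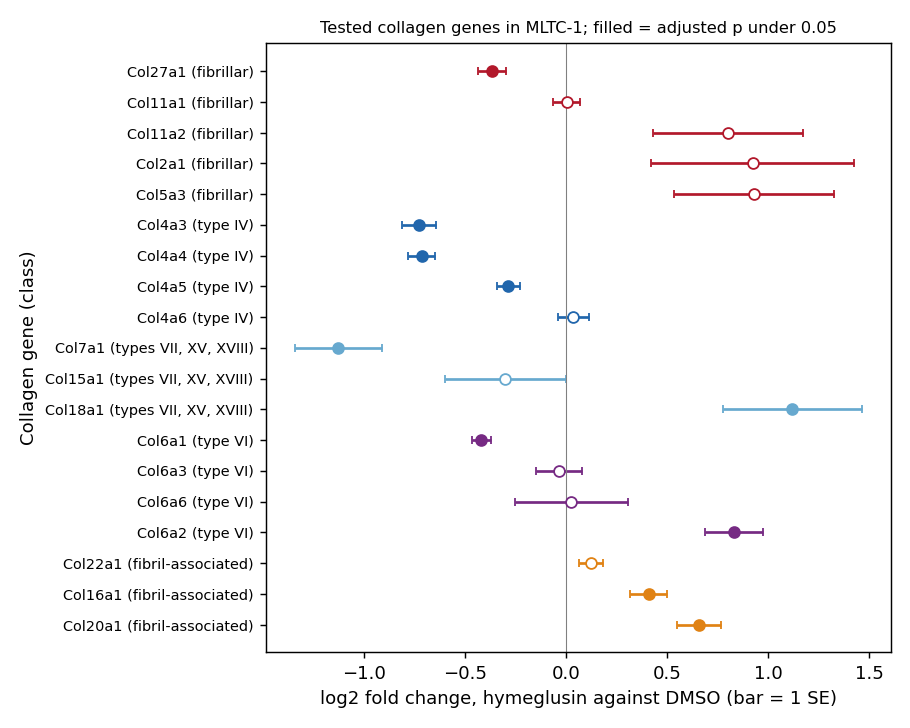
log2 fold change of hymeglusin against DMSO with 1 SE (horizontal axis) for the 19 collagen genes tested (vertical axis, by class), n = 3 libraries each; filled points have an adjusted p under 0.05. Col7a1, Col4a3 and Col4a4 lie farthest left, and Col18a1 and Col6a2 are the filled points farthest right.

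The abundant Col6a1 stood at 1418, 1503 and 1579 CPM with DMSO and at 1197, 1182 and 1234 CPM with hymeglusin, a log2 change of -0.42 ± 0.05 (SE; adjusted p = 1.65e-09). All hymeglusin libraries lay below all DMSO libraries. Its partner Col6a2 moved the other way, from 4.35, 4.8 and 3.8 CPM to 8.4, 7.31 and 9.13 CPM (log2 change 0.83 ± 0.14 SE, adjusted p = 8.44e-06), again without overlap. Col6a3 did not pass the test (log2 change -0.04 ± 0.11 SE, adjusted p = 0.813).

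Within type IV, Col4a3 and Col4a4 fell together. Col4a3 went from 22.2, 22.7 and 23 CPM to 14, 15.1 and 14.9 CPM (log2 change -0.73 ± 0.08 SE, adjusted p = 4.39e-09). Col4a4 went from 45.8, 49.5 and 46 CPM to 32.3, 31.2 and 29.2 CPM (log2 change -0.72 ± 0.07 SE, adjusted p = 3.35e-11). In both genes the highest hymeglusin library lay below the lowest DMSO library, and the per-kilobase ratio of Col4a4 to Col4a3 stayed between 1.65 and 1.95 in all 6 libraries. Col4a5, which joins these chains in the same network, also fell (log2 change -0.29 ± 0.06 SE, adjusted p = 7.34e-05). Its neighbour Col4a6 was not called (22, 22.8 and 22.6 CPM against 24.9, 24.8 and 24.6 CPM; log2 change 0.03 ± 0.08 SE, adjusted p = 0.739). The per-kilobase ratio of Col4a6 to Col4a5 was 0.223, 0.247 and 0.261 with DMSO and 0.301, 0.291 and 0.321 with hymeglusin.

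In the basement membrane zone, Col7a1, the chain of the anchoring fibrils, fell from 3.24, 3.31 and 3.25 CPM to 1.27, 1.49 and 2 CPM (log2 change -1.13 ± 0.22 SE, adjusted p = 4.92e-05). Col18a1 rose from 1.07, 0.374 and 0.587 CPM to 1.49, 1.8 and 1.3 CPM (log2 change 1.12 ± 0.35 SE, adjusted p = 0.00738), but lost the call without DMSO replicate 2 (adjusted p = 0.0797). Col15a1 was not called. Neither Col7a1 nor Col18a1 overlapped between groups, though the DMSO libraries of Col18a1 lay far apart.

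Among the others, the fibril-associated Col20a1 rose from 7.3, 7.82 and 7.51 CPM to 13.8, 12.3 and 12.3 CPM (log2 change 0.66 ± 0.11 SE, adjusted p = 5.4e-06), and Col16a1 rose by 0.41 ± 0.09 (SE, log2; adjusted p = 0.000483). Col22a1 of the same class was not called (log2 change 0.12 ± 0.06 SE, adjusted p = 0.094). The fibrillar Col27a1 fell by 0.37 on the log2 scale, from 37.6, 35.7 and 36.2 CPM to 32.5, 28.8 and 30 CPM. Col5a3 missed the threshold (adjusted p = 0.0518), and Col11a1 had a log2 change of 0 ± 0.07 SE (adjusted p = 0.985).

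The 25 genes outside the test stayed at or under 0.831 CPM in all 6 MLTC-1 libraries. Col12a1, a large fibril-associated collagen, had no count in 3 DMSO libraries and 22, 17 and 10 counts with hymeglusin, at least 15.3-fold higher against 3 counts over the group. Col5a1, a chain of type V collagen, had 2 counts with DMSO and 25 with hymeglusin, a ratio of 11.7 (95% exact counting interval 2.92 to 102). Of these 25 counts 17 came from hymeglusin replicate 1. Col28a1 (19 counts against 0) was at least 5.94-fold higher, and Col25a1 (10 counts against 0) at least 3.13-fold higher. Col3a1, Col4a1 and Col8a1 went the other way, from 4, 4 and 5 counts with DMSO to 2, 1 and 2 with hymeglusin. Low counts were also more common over all genes with hymeglusin, where 1240 to 1263 genes per library had 2 counts, against 815 to 930 with DMSO. Whether the rises go beyond this was not tested.

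Genes that process or bind collagen were called in both directions with hymeglusin, and their counts stand beside the 24.5% of all genes that fell and 23.8% that rose. Of the Leydig markers 5 of 8 fell and 1 rose. Of 11 tested genes for prolyl and lysyl hydroxylation and glycosylation, 7 fell and 1 rose (median log2 change -0.43). P4ha2 and P4ha1, catalytic subunits of prolyl 4-hydroxylase, changed by -1.4 and -0.67 (adjusted p = 4.93e-19 and 2.38e-14), and the lysyl hydroxylase Plod2 by -1.13 (adjusted p = 1.2e-19). Of 11 genes for folding and export, 6 fell and none rose, Fkbp7 the most (log2 change -0.69, adjusted p = 1.03e-05). Genes for propeptide cleavage, assembly and crosslinking were split (5 of 9 fell and 4 rose), with the crosslinking enzyme Loxl2 at -0.48 and the matrix protein Tnxb at 0.54. Of 9 collagen receptors 3 fell and 1 rose, the discoidin receptor Ddr1 (log2 change 0.59). Of 12 genes of the TGF-beta signal, a known inducer of collagen genes, 4 rose and 2 fell, among them the inhibitor Smad7 at 0.86 and the transducer Smad3 at -0.62. 

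Scaling by total counts instead moved the median of all genes to 0.11 and the calls over all genes to 4659 higher and 1996 lower, with 7 collagen genes higher. Without a filter on low counts 8 collagen genes were higher, and each of the 10 genes named as rising or falling, save Col18a1, kept its call under all 16 alternatives.

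Cells of 24 months were compared with cells of 2 months to describe ageing of Leydig cells. The collagens that were lower at 24 months were Col1a2, Col3a1 and Col5a1 of the fibrillar class, 4 of the 6 type IV genes, Col18a1, Col7a1 and Col26a1. Col6a1, Col22a1, Col20a1 and Col16a1, which ranked 3, 8, 10 and 11 among collagens by CPM per kilobase at 2 months, were not called. Of 40 genes tested, 10 fell (15.1% of all 16381 genes tested fell), none rose (13.5% of all genes rose), and 30 were not called; no gene that was higher had an unadjusted p under 0.05, and DESeq2 and limma-voom also called 0 higher. The median log2 fold change was -0.24 against -0.01 for all genes. Of the 40, 38 had a mean of at least 10 counts in both groups, and Col8a2, Col9a2, Col10a1 and Col24a1 were not tested, at no more than 0.578 CPM.

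**Figure D4:**
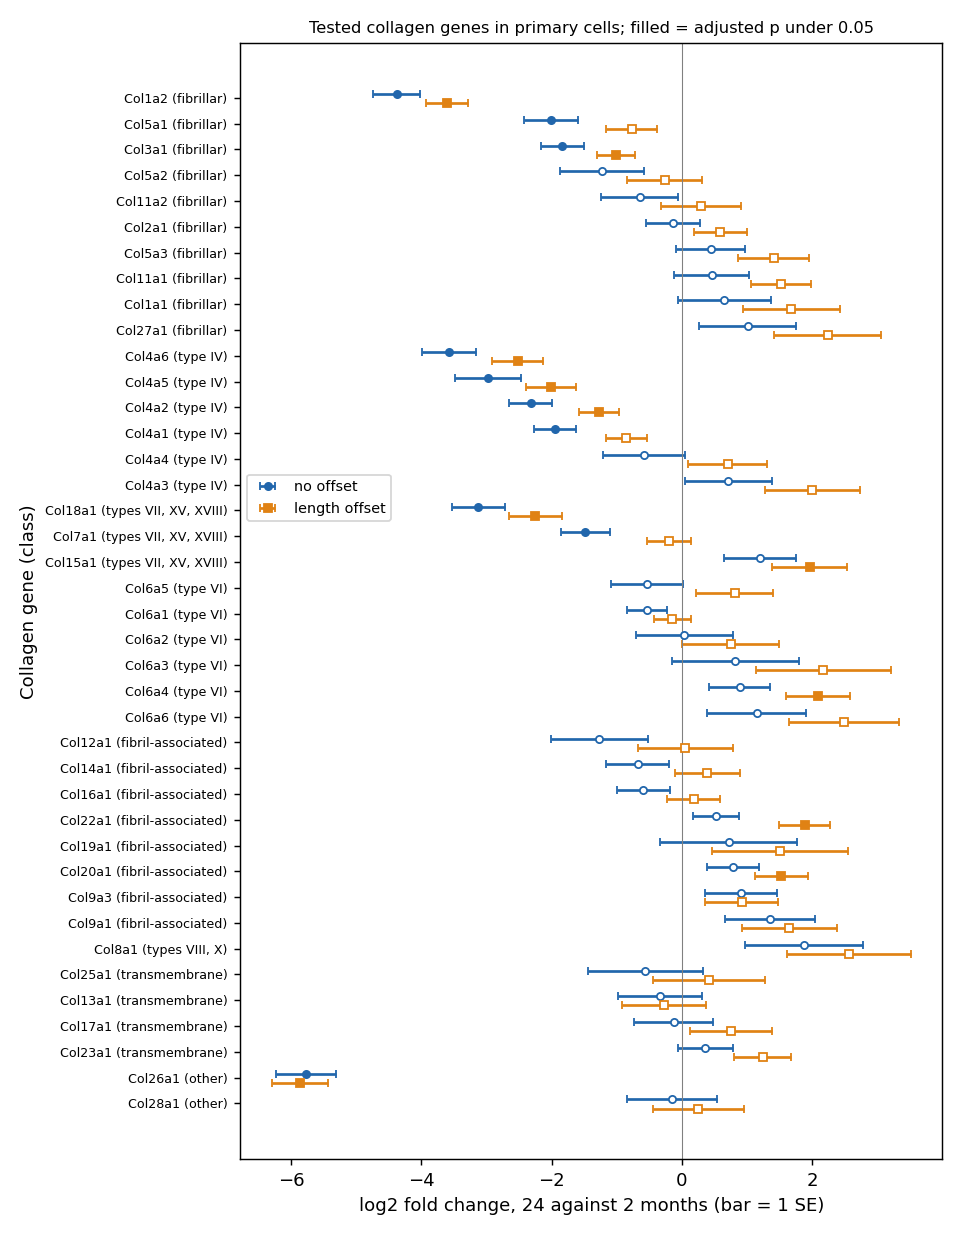
log2 fold change of 24 against 2 months with 1 SE (horizontal axis) for the 40 collagen genes tested (vertical axis, by class), n = 2 libraries each, without an offset (blue circles) and with the length offset (orange squares); filled points have an adjusted p under 0.05. Col26a1, Col1a2 and Col4a6 lie far left in both fits, while Col7a1 moves close to 0 with the offset.

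Among fibrillar genes, Col1a2 stood at 259 and 239 CPM at 2 months and at 8.73 and 12.1 CPM at 24 months, a log2 change of -4.38 ± 0.37 (SE; adjusted p = 0.000593). Col3a1 stood at 198 and 218 CPM and then at 41.5 and 60 CPM (log2 change -1.84 ± 0.32 SE, adjusted p = 0.00912). Col5a1 stood at 12 and 11.6 CPM and then at 2.07 and 3.04 CPM (log2 change -2.01 ± 0.41 SE, adjusted p = 0.0124). No library overlapped in these 3 genes, and the other 7 fibrillar genes tested were not called. Col1a1 showed 1.69 and 1.73 CPM at 2 months, against 3.5 and 0.97 CPM in the older libraries, so its 24-month libraries lay on either side of the 2-month ones. Col11a1 did the same, at 20.4 and 16.8 CPM and then 7.35 and 39.3 CPM; its log2 change of 0.45 became 1.11 (adjusted p = 0.00211) without 24-month replicate 1 and -1.05 (adjusted p = 0.00948) without 24-month replicate 2.

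Both head-to-head pairs of type IV genes that were abundant at 2 months fell as pairs. Col4a1 went from 197 and 201 CPM to 43.9 and 44.6 CPM (log2 change -1.95 ± 0.33 SE, adjusted p = 0.00768), and Col4a2 from 122 and 116 CPM to 19.3 and 21.8 CPM (log2 change -2.32 ± 0.33 SE, adjusted p = 0.00464). Col4a5 went from 96.5 and 86.9 CPM to 4.48 and 16.5 CPM (log2 change -2.98 ± 0.51 SE, adjusted p = 0.00835). Col4a6 went from 19.8 and 18.9 CPM to 1.21 and 1.6 CPM (log2 change -3.58 ± 0.41 SE, adjusted p = 0.002). Replicates of Col4a1, Col4a2 and Col4a6 lay close together within each age, whereas the 24-month libraries of Col4a5 differed from each other by several fold. Col4a3 and Col4a4, at or under 2.66 CPM in these cells, were not called.

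In the basement membrane zone Col18a1 fell from 33.1 and 29.5 CPM to 3.62 and 2.53 CPM (log2 change -3.12 ± 0.41 SE, adjusted p = 0.0036) and Col7a1 from 21 and 19.2 CPM to 4.83 and 7.8 CPM (log2 change -1.48 ± 0.37 SE, adjusted p = 0.0212). Col26a1 had the lowest fold change of all tested members, from 57.3 and 50.4 CPM to 1.03 and 0.675 CPM (log2 change -5.77 ± 0.46 SE, adjusted p = 0.000485). The type VI, fibril-associated and transmembrane classes held no called gene among 6, 8 and 4 tested. Col6a1 stood at 147 and 145 CPM and then 80.9 and 93.2 CPM, without overlap (log2 change -0.54 ± 0.31 SE, adjusted p = 0.212). It was called without 24-month replicate 1 (adjusted p = 0.0161) and without 24-month replicate 2 (adjusted p = 0.0187). Of the fibril-associated genes, Col22a1 stood at 76.2 and 93.5 CPM and then 119 and 87.3 CPM (log2 change 0.53 ± 0.35 SE, adjusted p = 0.275). Col20a1 stood at 21 and 26.4 CPM and then 43.1 and 24.9 CPM, and Col16a1 at 16.3 and 32.4 CPM and then 15.3 and 11.9 CPM. On this scale the ages overlapped for Col22a1 and Col20a1 and not for Col16a1, and on TMM-scaled values it was the reverse.

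Collagen transcripts are long, and this comparison ran with transcript length over all genes. The 40 tested collagens had a median longest transcript of 6083.5 bases against 3099 bases for all tested genes. The genes were cut into 10 bins of nearly equal number by length. In the shortest bin, up to 1111 bases, 50.7% rose and 1.56% fell, and among the 1601 genes in the longest bin, from 6573 bases, 54.6% fell and 1.06% rose. Each 24-month library showed the trend on its own: relative to the 2-month mean, the median log2 difference in the longest bin was -1.67 in replicate 1 and -1.09 in replicate 2. In the 2 longest bins, which held 32 of the 40 collagens, the share of collagens that fell and the size of their median change were smaller than those of all genes, a difference that was not tested. In the first of these (5022 to 6572 bases) 5 of 16 collagens fell against 39.5% of all genes, and their median log2 change was -0.36 against -0.99. In the longest bin 4 of 16 collagens fell, with a median of -0.55 against -1.41. Over both bins 9 of 32 collagens fell (28.1%) against 47% of 3203 genes, and no collagen rose against 1.65% of genes. The other 8 collagens lay in shorter bins, where only Col26a1 fell; in its bin 4.36% of all genes fell.

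**Figure D5:**
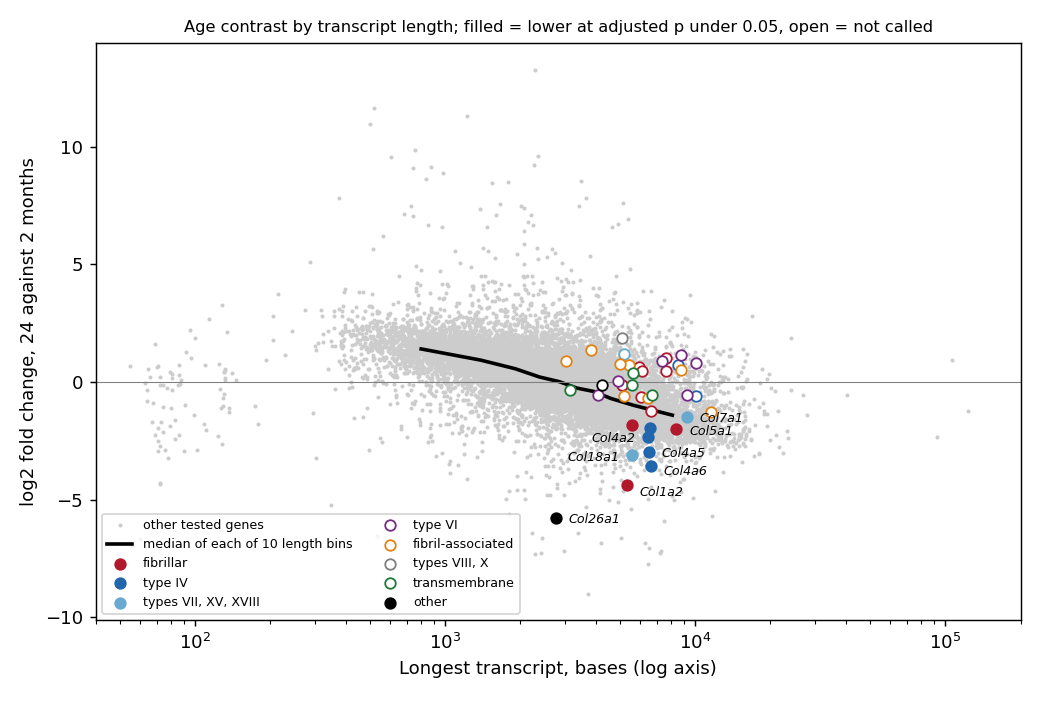
log2 fold change of 24 against 2 months (vertical axis) by longest transcript length in bases (horizontal log axis) for all genes tested; the black line joins the medians of the 10 length bins, filled coloured points are collagens that fell and open ones were not called. Col26a1, Col1a2, Col18a1, Col4a5 and Col4a6 lie well below the line at their length, and most open points lie above it.

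When each library's trend with length was removed as an offset, 7 collagen genes were lower (5.84% of all genes were) and 4 were higher (6.80% of all genes were). Col1a2 (-3.61), Col26a1 (-5.87), Col4a6 (-2.52), Col18a1 (-2.25), Col4a5 (-2.01), Col4a2 (-1.27) and Col3a1 (-1.01) remained lower on the log2 scale. Col4a1, Col5a1 and Col7a1 lost the call, with adjusted p = 0.0918, 0.199 and 0.725. Col15a1, Col20a1, Col22a1 and Col6a4 were then higher, by 1.96, 1.52, 1.88 and 2.09 on the log2 scale. The median over collagens was 0.65 with the offset against -0.07 for all genes. An offset for length and GC content together kept Col4a1 (adjusted p = 0.0107) and left 8 collagens lower (10.6% of all genes) and 4 higher (10.3%). Col1a2, Col4a2, Col4a5, Col4a6, Col18a1 and Col26a1 fell under all 14 alternatives that could be computed for them, whereas Col5a1 and Col7a1 also lost the call without either 2-month library and Col3a1 without 2-month replicate 1 (adjusted p = 0.0575).

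Markers of other cells moved with age in both directions. The stromal markers Pdgfra (215 and 231 CPM, then 25.2 and 62.7 CPM) and Dcn (188 and 196 CPM, then 28.8 and 77.2 CPM) also fell, while 5 of the 10 stromal markers rose from at most 1.57 CPM, and the list summed to 581 and 619 CPM at 2 months, against 267 and 406 CPM in the older libraries. Spermatid markers rose in 8 of 9 genes and macrophage markers in 4 of 9 (sums of 13.4 and 16.1 CPM, then 47.3 and 46.4 CPM), where 13.5% of all genes rose. With the length offset, under which 6.80% of all genes rose, 1 of 9 spermatid, 3 of 9 macrophage and 2 of 10 stromal markers were higher, and the spermatid median log2 change went from 2.02 to 0.59. Endothelial markers summed to 19.7 and 21.1 CPM and then 31.1 and 16.5 CPM. Myoid and smooth muscle markers summed to 196 and 191 CPM and then 229 and 256 CPM. Of these lists 2 of 7 endothelial markers rose, and 3 of 8 myoid markers rose and 1 fell. With the length offset 3 of 7 endothelial markers were higher, and their median log2 change went from 1.97 to 2.45. Of the 8 myoid markers 2 were then higher and none lower. Leydig marker sums overlapped between the ages. Of 9 Sertoli markers tested 1 fell and none rose, and with the length offset 1 was lower and 1 higher. The part of stromal, endothelial, myoid and Sertoli cells and of germ cell RNA in the collagen changes was not tested.

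Genes that process collagen were mostly not called with age, where 15.1% of all genes fell and 13.5% rose. Of 12 modification genes 2 fell, Plod2 by 1.85 on the log2 scale and P3h1 by 0.98, and of 12 folding and export genes 3 fell, among them Mia3 (log2 change -1.53), which loads collagen into export vesicles. Of 15 genes for cleavage, assembly and crosslinking 4 fell, among them fibronectin Fn1 (-3.34) and the procollagen protease Adamts2 (-2.67), and Lum rose (3.02). Of 10 receptors 2 fell, Ddr2 (-2.77) and Itgb1 (-1.25), and of 14 genes of the TGF-beta signal 5 fell, among them the receptor Tgfbr1 (-2.11), while Thbs1 rose (3.06). With the length offset the receptor median log2 change went from -0.86 to 0.22, and the TGF-beta list from 5 lower and 1 higher to 3 lower and 2 higher (median from -0.81 to -0.041). Without 2-month replicate 1 only 602 genes fell and 239 rose over the whole table, and without 2-month replicate 2 these were 972 and 481.

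MLTC-1 cells with DMSO were set beside 2-month primary cells to show how far the line carries the collagens of the tissue. This comparison uses the DMSO and the 2-month libraries again, and line, culture and preparation cannot be told apart in it. Of 38 genes tested, 27 were lower in MLTC-1 (48.5% of all 16092 genes tested were lower), 7 were higher (34.4% of all genes were higher) and 4 were not called. Of the 38, 20 reached a mean of 10 counts only in primary cells and 1 only in MLTC-1, and these had to differ to pass the filter. The median log2 change was -4.1, against -0.27 for all genes. It was -3.96 with the 9 genes at 0 to 3 counts set to bounds, or to count ratios where the line had a count.

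Col1a2 had 1 count over 3 DMSO libraries against 11926 over 2 primary ones, a ratio of 2.11e+04 in favour of primary cells (95% exact counting interval 3.78e+03 to 8.33e+05). Col26a1 had none against 2577 counts, at least 1.52e+03-fold lower in MLTC-1. Col4a1, Col3a1 and Col4a2 were lower in MLTC-1 by fitted log2 changes of -11.9, -11.96 and -10.07. They had 4, 4 and 9 counts over the DMSO libraries against 9529, 9968 and 5691 over the primary ones. Like Col1a2 and Col26a1, they passed the filter only through primary cells, so their being called is no separate evidence. The genes higher in the line were Col27a1 (log2 change 6.12 ± 0.19 SE), Col6a3 (5.03 ± 0.44), Col4a3 (4.65 ± 0.22), Col4a4 (4.42 ± 0.16), Col6a1 (3.37 ± 0.07), Col6a6 (1.38 ± 0.43) and Col11a1 (0.85 ± 0.11). Of these, Col6a3 passed the filter only through MLTC-1. Col6a6 was called in 10 of 14 alternatives and lost the call with the length offset (adjusted p = 0.0562) and with length and GC (adjusted p = 0.0702). Col6a1 stood at 1418 to 1579 CPM in the line against 147 and 145 CPM. Col4a5 (97, 90.9 and 85.3 CPM against 96.5 and 86.9 CPM) overlapped between the groups, with a log2 difference of -0.01 ± 0.08 SE (adjusted p = 0.929), but was called lower with the length offset (log2 change -0.41, adjusted p = 0.000842). The collagen chaperone Serpinh1 stood at 50.8 and 56.2 CPM at 2 months and at or under 0.0575 CPM with DMSO, and the fibril-binding Dcn had no count with DMSO. Of 12 modification genes 7 were higher and 3 lower, and of 12 folding and export genes 2 were higher and 9 lower. Of the other cells' markers, 6 of 7 stromal, 9 of 9 macrophage and 9 of 9 spermatid genes were lower in the line. With DMSO the macrophage markers summed to at most 1.11 CPM and the spermatid markers to at most 0.391 CPM. In each DMSO library 6 of the 10 listed stromal genes had no count. Genes this scarce in the line pass the filter mainly through primary cells, so their being called is no separate evidence.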

How the data were processed

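The authors deposited raw counts per gene for 10 libraries; per the submitters' processing notes, fastp 0.23.4, FastQC 0.12.1, HISAT2 2.2.1, featureCounts 2.0.6 and build mm10 were used, and per the labels' protocols an NEBNext Ultra kit was used. The sources used here do not give the annotation or the strand setting, so reads of overlapping antisense genes cannot be told apart (5.65% of Col4a3 exon bases and 6.07% of those of Col9a3 are shared with other genes).

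The members, classes and lists were chosen with earlier results of these data known. Members named with values had a mean of at least 10 CPM in any group or passed the threshold with hymeglusin or age; from each pathway list up to 3 genes per direction were named by adjusted p. Groups came from the labels. Each comparison was fitted on its own groups over all genes with edgeR 4.0.16 (R 4.3.3): filterByExpr (minimum count 10, minimum total 15), TMM scaling, robust quasi-likelihood test, Benjamini-Hochberg adjustment over all genes tested, threshold 0.05. Folds are TMM-scaled log2 values; CPM uses total counts. Lengths are longest GENCODE M21 transcripts (97.8% of genes tested with age had one). The length offset is a loess trend (span 0.3) of each library on log2 length. Per-library differences by length used log2(CPM + 0.5). Alternatives were DESeq2 1.42.0, limma-voom 3.58.1, other scalings, filters, offsets, a replicate block and leaving out each library, with the same for levels added after seeing the data. The code was tested on simulated data. Same-numbered libraries did not deviate together (correlations from -0.0905 to 0.0318), so numbers were not taken as pairs, and no 2 replicates agreed within sampling noise (chi-square per degree of freedom 3.44 to 134). Gene positions and start regions are from RefSeq on GRCm38.p6, the build that mm10 names.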

Additional observations from a re-analysis of the deposited data

How the results depend on the processing

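With a replicate block, 4 collagen genes rose and 6 fell with hymeglusin, 0 rose and 10 fell with age, 4 fell in the longest length bin, and 7 were higher and 27 lower in MLTC-1, as without it; Col6a2 was then called in MLTC-1 (1.12, adjusted p = 0.022). With hymeglusin, 7 genes rose under total counts and 8 without a count filter. With age, 4 rose with the length offset and 4 with the length and GC offset, and 1 and 2 fell in the longest length bin. The line comparison had 14 lower genes at a mean of at least 50 counts, a filter that tests fewer genes. Leaving out 1 library at a time gave 4 to 6 higher and 6 to 6 lower with hymeglusin, 0 to 4 higher (0 without a 2-month library, 1 without 24-month replicate 1 and 4 without 24-month replicate 2), 7 to 13 lower and 2 to 6 lower in the longest length bin with age, and 7 to 8 higher and 25 to 27 lower in MLTC-1. Upper quartile scaling moved the median of all genes with age to 0.17 and the calls to 2626 higher and 1781 lower, and total counts moved them to -0.21, 531 and 1301. Collagen sums per kilobase of 413 (DMSO), 341 (hymeglusin), 245 (2 months) and 79.5 (24 months) became 717, 599.8, 1133 and 318 with median transcript lengths, and 334, 238 and 84.6 for the last 3 with TMM over all libraries. Without a library they ran from 404 to 423, 338 to 344, 243 to 247 and 76.9 to 82. With median lengths the 2-month sum thus lay above the DMSO sum, the reverse of the order with longest lengths. This reversal follows from the lengths used. The median transcripts of Col3a1, Col4a1 and Col1a2 have 737, 647 and 2034.5 bases, against longest ones of 5564, 6615 and 5348 bases. For Col6a1 these are 2512.5 and 4100 bases. The cause of the other shifts was not tested.

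Of the genes named with values, those that changed sign were not called in the original fits. With hymeglusin these were Col11a1 (-0.0045 without a count filter, -0.021 to 0.018 leaving out 1 library, with -0.013 without DMSO replicate 3), Col4a6 (-0.019 with length and GC) and Col6a3 (0.068 with total counts, -0.11 to 0.023 leaving out 1 library, with 0.018 without hymeglusin replicate 2). With age they were Col11a1 (-1.05 to 1.11 leaving out 1 library), Col16a1 (0.18 with length), Col2a1 (0.041 upper quartile, 0.59 length, 0.44 length and GC, -0.49 to 0.29 leaving out 1 library), Col4a4 (0.703 length, 0.65 length and GC) and Col6a2 (-0.26 total counts, -0.14 limma-voom, -0.0102 no count filter, -1.14 to 0.998 leaving out 1 library). Under the length offset 7 further genes turned from lower to higher with age, from Col12a1 (0.052) to Col6a5 (0.808), none of them called. In the line comparison they were Col4a5 (0.0103 no count filter, 0.037 replicate block, -0.081 to 0.079 leaving out 1 library) and Col4a6 (-0.19 length, -0.34 length and GC). The 24-month libraries limit precision most, with a chi-square per degree of freedom between them of 134.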

Other observations

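Collagens best known from cartilage were present in primary cells. Col2a1, the chain of type II collagen, stood at 7.27 and 13.6 CPM at 2 months and at 8.16 and 7.97 CPM at 24 months, against 0.157 to 0.728 CPM in MLTC-1. Per kilobase it stood at 1.42 and 2.66 at 2 months, above Col1a1 at 0.285 and 0.292. Col9a3 of type IX collagen stood at 1.23 and 2.1 CPM and then 2.53 and 2.83 CPM, and Col9a1 at 0.592 and 0.578 CPM and then 1.44 and 1.14 CPM, and both missed the threshold with age (adjusted p = 0.23 and 0.161). Col11a2 of type XI collagen stood at 1.65 and 2.43 CPM and then 0.977 and 1.26 CPM. Col9a2 had 4 counts at 2 months, all in replicate 1, and none at 24 months. Against 3 counts over the older group this is 1.14-fold, which takes the 4 counts as exact and does not tell the ages apart.

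Transmembrane collagens were found at both ages and were scarce in the line. Col23a1 stood at 5.45 and 4.54 CPM at 2 months and at 5.69 and 5.35 CPM at 24 months, and at or under 0.831 CPM in MLTC-1. Col13a1, found at cell contacts, stood at 2.2 and 1.16 CPM and then 1.09 and 1.22 CPM. The difference with age was not called for Col13a1, Col17a1, Col23a1 or Col25a1, with log2 changes from -0.56 to 0.36.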
